A study of Mus musculus with 6 samples.

Results

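Tgm1 and Tgm2 encode transglutaminases, and their mRNA was described here in mouse embryonic stem cells with and without E-cadherin. The members were the 2 rows of the deposited count table whose Ensembl identifiers map to Tgm1 (ENSMUSG00000022218.16) and Tgm2 (ENSMUSG00000037820.15), of 55401 rows in all. Counts of at least 1 were present for 32417 rows, and 17325 of these, both members included, passed the filter on low counts. The pair was chosen for its measured difference between the genotypes in these same libraries. That difference is therefore given as a description, with no test.

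The series compared wild-type V6.5 cells, a mouse embryonic stem cell line, with Cdh1-/- V6.5 cells. Cdh1 encodes E-cadherin, the calcium-dependent adhesion molecule of epithelial and embryonic stem cell junctions, and the title of the series concerns its effect on beta-catenin stability and transcriptional activity. Each genotype had 3 libraries of total RNA, lettered A, B and C, made with a strand-preserving kit. No treatment, time or culture condition distinguished the libraries in the labels. The labels do not say how the knockout line was made or whether it is 1 clone, nor that the letters mark separate cultures, so p-values measure only the spread between these libraries.

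Transglutaminases are calcium-dependent enzymes that join the side chain of a glutamine in one protein to a lysine in another, which leaves a bond that proteases do not readily cut. Tgm1 is anchored in the plasma membrane of keratinocytes, where it builds the cornified envelope of the skin, and its loss causes lamellar ichthyosis. Tgm2, tissue transglutaminase, is made by many cell types, also binds GTP, is exported to the matrix, where it cross-links fibronectin and binds integrins, and is a known retinoic acid-inducible gene.

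The reaction is carried by 1 cysteine, so the coding stretch around it is shown for both members and for a pair of relatives, since it is what makes a family member an enzyme. In GENCODE M21 gene models on the mouse build GRCm38 this cysteine is residue 376 of 815 in Tgm1, with its codon in exon 7 at chr14:55709422-55709424 on the minus strand. In Tgm2 it is residue 277 of 686, with its codon in exon 6 at chr2:158131359-158131361 on the minus strand. The 60 coding bases are written 5′ to 3′, with the codon of that residue in capitals.
Tgm1: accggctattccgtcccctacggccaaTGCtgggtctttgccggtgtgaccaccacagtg
Tgm2: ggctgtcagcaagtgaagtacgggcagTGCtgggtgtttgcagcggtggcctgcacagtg
Tgm3: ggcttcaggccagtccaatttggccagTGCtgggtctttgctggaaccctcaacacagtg
Epb42: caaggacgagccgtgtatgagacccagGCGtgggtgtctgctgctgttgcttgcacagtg
The codon was TGC in Tgm1, Tgm2 and Tgm3. Epb42, the structural red-cell protein of the family that is not an enzyme, has GCG, a codon for alanine, at the aligned place. Tgm1 and Tgm2 shared 38 of these 60 bases and 12 of the 20 encoded residues. Over the whole alignment of their proteins 262 of 664 residues were identical (39.5%). Shared runs of bases were sought in whole transcripts, untranslated bases included, using for each gene the transcript with the longest coding sequence. The longest run that Tgm1 and Tgm2 had in common was 14. The longest that either had with any other family member was 24, between Tgm1 and Tgm6.

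Total counts per library lay between 18020719 and 23381942. Cdh1 was at 569, 571 and 537 CPM (counts scaled to a common library size, after TMM scaling) in the wild-type libraries and at 168, 183 and 166 CPM in the knockout libraries. It was thus lower in each library labelled knockout, with counts still present. The genotypes separated on the first principal component (45.2% of variance). Knockout library A stood apart on the second (20.9%), and without it 2784 genes were called over all, against 2307. Where leaving it out changed the count of calls in a list, that count is given beside the list. Among counts of 1 to 10, between 78.1% and 83.1% were even in each library. Whether both mates of a read pair were counted is not given in the sources used here, and if they were, a printed count is 2 times the number of fragments. For that reason 6 counts, or 0.262 to 0.332 CPM in 1 library, were taken as the floor under which a level was not distinguished from 0, which covers counting error only.

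Tgm1 lies at chr14:55700009-55713926 on the minus strand and was counted over 3008 exon bases in 16 exon blocks. It had 331, 255 and 391 counts in wild-type libraries A, B and C and 1012, 1514 and 1484 counts in knockout libraries A, B and C. After scaling these were 14.9, 12.9 and 19.6 CPM in the wild type and 55.9, 66.1 and 74.9 CPM in the knockout. All knockout libraries lay above all wild-type libraries, wild-type C was the highest of its group, and knockout A was the lowest of its own. The means were 15.8 ± 3.42 CPM (SD, n = 3) in the wild type and 65.6 ± 9.48 CPM (SD, n = 3) in the knockout. The fitted log2 difference, knockout minus wild type, was 2.06 with a standard error of 0.15, a 4.16-fold higher level. Across the 9 possible pairs of a knockout and a wild-type library the ratio of CPM ran from 2.86 to 5.81. Without knockout library A the log2 difference was 2.16.

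Tgm2 lies at chr2:158116402-158146436 on the minus strand and was counted over 3596 exon bases in 13 exon blocks. It had 410, 391 and 342 counts in wild-type libraries A, B and C and 1106, 1218 and 1039 counts in knockout libraries A, B and C. After scaling these were 18.5, 19.8 and 17.1 CPM in the wild type and 61.1, 53.2 and 52.4 CPM in the knockout. Again no knockout library overlapped the wild type, and the libraries within a genotype lay closer together than for Tgm1. The means were 18.4 ± 1.32 CPM (SD, n = 3) in the wild type and 55.6 ± 4.82 CPM (SD, n = 3) in the knockout. The log2 difference was 1.59 with a standard error of 0.11, a 3.01-fold higher level, and it was 1.52 without knockout library A. The 9 library pairs gave ratios from 2.65 to 3.57. The coefficient of variation within a genotype was 7.18% and 8.67% for Tgm2 in wild type and knockout, against 21.7% and 14.4% for Tgm1.

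As background, 13.3% of the 17325 tested genes were called at an adjusted p under 0.05 (edgeR's quasi-likelihood test with Benjamini-Hochberg adjustment), 7.60% higher and 5.71% lower in the knockout. Without overlap between the genotypes, 15.7% were higher in the knockout. Nothing is read from these shares for the 2 members, since they were chosen on the same contrast. In the order of log2 differences Tgm1 was number 25 and Tgm2 number 85 of 17325. In bulk RNA, a larger share of cells making a transcript and more transcript per cell cannot be told apart.

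**Figure D1:**
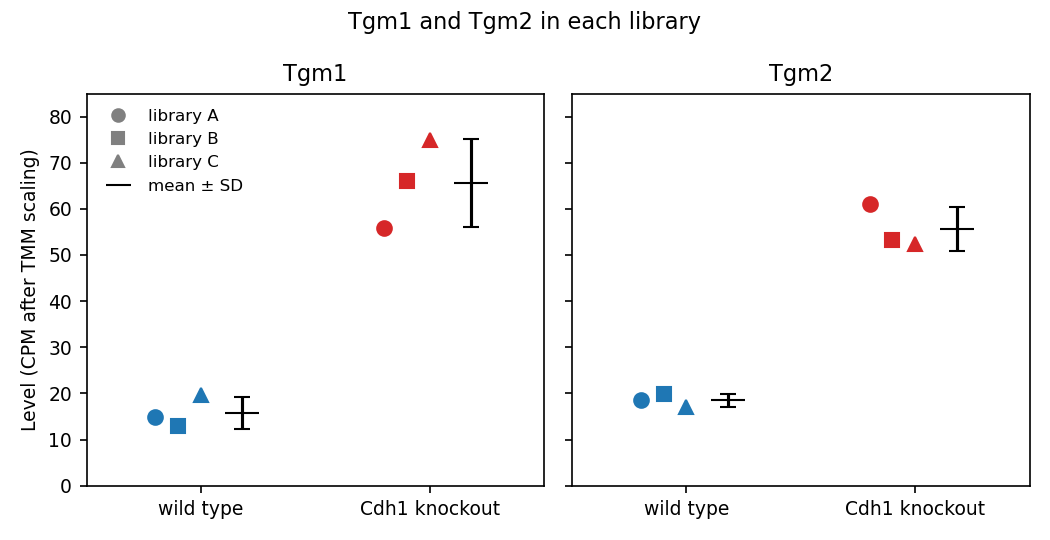
Level of Tgm1 (left) and Tgm2 (right) in CPM for each of the 6 libraries (circle A, square B, triangle C), with the mean and SD of each genotype beside the points. Knockout libraries lie between 55.9 and 74.9 CPM for Tgm1 and between 52.4 and 61.1 CPM for Tgm2, all above the wild-type libraries.

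Per length, the members were nearly level in the wild type. On the scale of RPKM (CPM per kilobase of exon), Tgm1 was at 4.95, 4.28 and 6.5 in wild-type libraries A, B and C, and Tgm2 at 5.13, 5.49 and 4.76. Tgm1 was the higher of the pair only in wild-type library C. In the knockout libraries A, B and C, Tgm1 was at 18.6, 22.0 and 24.9 RPKM and Tgm2 at 17.0, 14.8 and 14.6 RPKM. There Tgm1 was the higher in each library. The ratio of Tgm1 to Tgm2 in RPKM was 0.965, 0.780 and 1.37 in wild-type A, B and C and 1.09, 1.49 and 1.71 in knockout A, B and C, so the genotypes overlapped in this ratio. Among tested genes ordered by mean RPKM, Tgm1 moved from percentile 50.3 to 80.4 and Tgm2 from 49.8 to 73.4.

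Within a genotype the members did not follow each other. In log2 CPM, Tgm1 deviated from its genotype mean by -0.06, -0.27 and 0.33 in wild-type libraries A, B and C, and Tgm2 by 0.00, 0.10 and -0.11. In knockout libraries A, B and C the deviations were -0.22, 0.02 and 0.20 for Tgm1 and 0.14, -0.06 and -0.08 for Tgm2. The library with the most Tgm1 in each genotype, C, had the least Tgm2, and the library with the least Tgm1 had the most Tgm2. The Pearson correlation of log2 CPM was 0.951 over the 6 libraries, which holds the difference between the genotypes, and -0.934 for the deviations, which has only 3 libraries a genotype behind it. Both are given as descriptions.

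**Figure D2:**
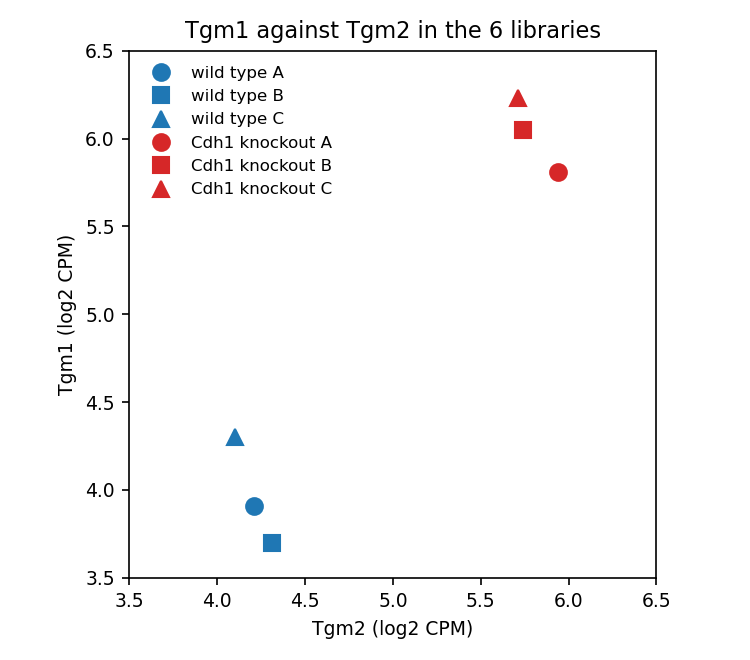
Level of Tgm1 (vertical) against Tgm2 (horizontal), both in log2 CPM, with 1 point a library. The genotypes form 2 separate groups, and inside each group the points run from upper left to lower right, for instance from 3.70 for Tgm1 and 4.31 for Tgm2 in wild-type B to 4.30 and 4.10 in wild-type C.

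Of the 10 genes of the family list, 3 passed the filter on low counts, the 2 members and Tgm3. Tgm3, an epidermal and hair follicle transglutaminase that lies on chromosome 2 like Tgm2, had 34, 44 and 28 counts in wild-type libraries A, B and C and 4, 10 and 14 in the knockout libraries. Its groups did not overlap, and its direction was opposite to that of the members. It fell from 1.72 ± 0.442 to 0.455 ± 0.243 CPM (SD, n = 3 each), a log2 difference of -1.89 (standard error 0.48) at an adjusted p of 0.0175 by edgeR's quasi-likelihood test. That call was lost without wild-type library A, wild-type library B or knockout library B, and the highest adjusted p, 0.108, came without wild-type library B. The other 7 genes were at or near 0 and were not tested. Summed over the 3 libraries of wild type and knockout, the counts were 8 and 2 for Tgm6, 4 and 4 for Epb42, 4 and 2 for F13b, 0 and 2 for Tgm5, and 0 and 2 for F13a1. Tgm4, the prostate enzyme, and Tgm7 had 0 counts in every library. F13a1 encodes the clotting factor XIII enzyme and F13b its carrier subunit, which has no transglutaminase active site. Transglutaminase mRNA in these cells was therefore mostly that of the 2 members.

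**Figure D3:**
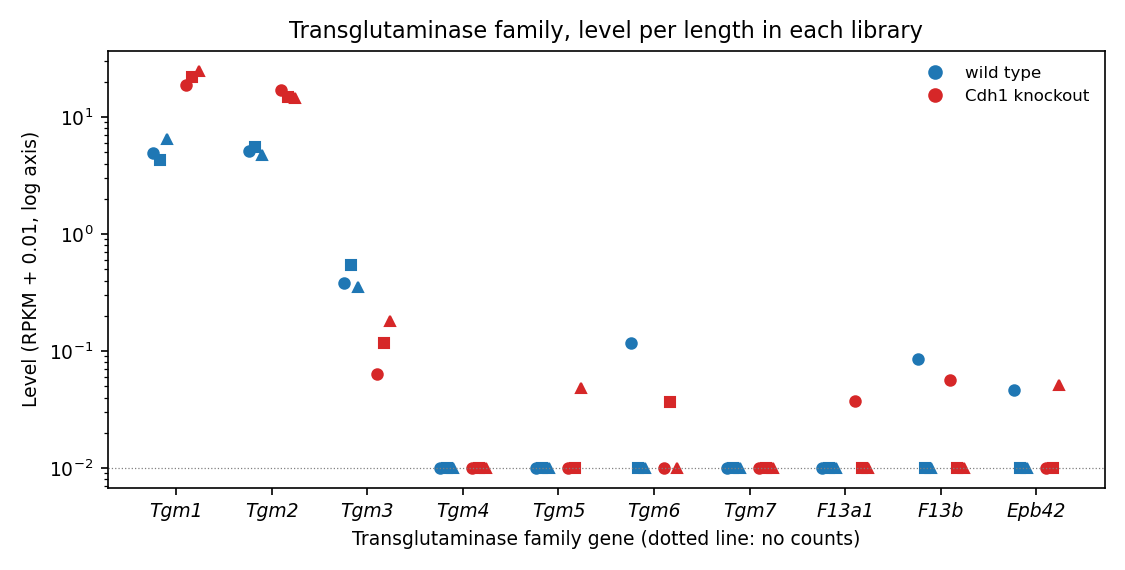
Level of each of the 10 family genes in RPKM plus 0.01, on a log axis, with 3 wild-type (blue) and 3 knockout (red) libraries a gene, and a dotted line for no counts. Tgm1 and Tgm2 lie between 4.28 and 24.9 RPKM, Tgm3 is lower in the knockout, and the other 7 genes have few counts or none.

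Genes that share exon bases with the members on the opposite strand had few counts or did not move with them. Tgm1 shares 182 exon bases (6.1%) with Gm49067, which had 0 counts in the wild type and 2 in knockout library C. Tgm2 shares 633 exon bases (17.6%) with Gm20412, which had 0 counts in every library, and 178 (4.9%) with Rprd1b. Rprd1b, a regulator of RNA polymerase II, was at 52.3 ± 2.76 CPM in wild-type and 57.8 ± 2.73 CPM in knockout libraries (SD, n = 3 each), a log2 difference of 0.14 with an adjusted p of 0.364 (edgeR's quasi-likelihood test). The setting for strand in the counting is not given in the sources used here, so reads of overlapping genes could have been split or dropped. All 633 exon bases of Gm20412 lie within those of Tgm2, so its 0 counts do not tell whether it was expressed.

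The chromosome of Tgm1 as a whole was higher in the knockout. Of 622 tested genes on chromosome 14, 310 were called higher, which is 49.8%, and their median log2 difference was 0.53, against -0.01 over all tested genes. Tgm1 was number 4 of the 622, and its difference lay 1.53 above the chromosome's median. With the medians of chromosomes 1 and 14 taken out in the fit, its log2 difference was 1.51, as against 2.06. Most genes around it were higher too. Within 250 kb on either side of Tgm1, 33 genes were tested, 25 of them were called higher and 0 lower (edgeR's quasi-likelihood test, adjusted p under 0.05), with a median of 0.70. Rabggta, the next gene upstream and a subunit of the Rab geranylgeranyl transferase, rose from 47.9 ± 6.77 to 79.9 ± 5.07 CPM, a log2 difference of 0.74 with an adjusted p of 0.0004. Tinf2, a shelterin subunit that protects telomeres, lies downstream and rose from 62.3 ± 5.42 to 91.0 ± 3.64 CPM, by 0.55 on the log2 scale with an adjusted p of 0.00125. Neither of these genes came near the difference of 2.06 of Tgm1.

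A few neighbours of Tgm1 showed larger differences. Nynrin, a gene derived from a retroelement, rose from 52.8 ± 7.47 to 149 ± 49.6 CPM, a log2 difference of 1.5 with an adjusted p of 0.000115. Ripk3, the kinase of necroptosis, rose from 13.8 ± 1.59 to 29.9 ± 1.95 CPM, a log2 difference of 1.11 with an adjusted p of 6.01e-05. These were the 2 neighbours still called once the chromosome medians were taken out, at log2 differences of 0.95 (adjusted p 0.00464) and 0.57 (adjusted p 0.0123). Ltb4r1 and Ltb4r2, adjoining genes for leukotriene B4 receptors, rose by 1.92 and 1.82 on the log2 scale from means of 0.291 and 0.534 CPM, near the floor. Their adjusted p-values were 0.0274 and 0.026 and were lost without wild-type library B, wild-type library C, knockout library B or knockout library C, for Ltb4r1 also without wild-type library A, with 0.134 for Ltb4r1 without knockout library B. The other called neighbours, Nfatc4, Khnyn, Sdr39u1, Nop9, Dhrs1, Nedd8, Mdp1, Tm9sf1, Ipo4, Rec8, Irf9, Rnf31, Psme1, Psme2, Emc9, Dcaf11, Pck2, Carmil3 and Dhrs4, had log2 differences from 0.49 (Nedd8) to 0.92 (Irf9 and Emc9). Among these, the calls of Ipo4 and Dhrs4 were lost without wild-type library A or B or knockout library B, that of Pck2 without these or knockout library C, that of Emc9 without wild-type library B and that of Carmil3 without wild-type library A. The 8 neighbours not called were Cbln3, Adcy4, Cideb, Gmpr2, Gm49747, Fitm1, A730061H03Rik and Cpne6, the last of which had a value of -0.29.

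Around Tgm2 the setting was different. On chromosome 2, 78 of 1316 tested genes were called higher, which is 5.93%, and the median log2 difference was -0.00. Tgm2 was number 8 of the 1316. Within 250 kb, 9 genes were tested, with a median of 0.10. Among these, 1 was called, Snhg17, a host gene of small nucleolar RNAs, which fell from 50.5 ± 5.18 to 37.5 ± 3.59 CPM, a log2 difference of -0.43 with an adjusted p of 0.0196 (edgeR's quasi-likelihood test). That call was lost without wild-type library A, at an adjusted p of 0.129, and also without wild-type library B or knockout library C. The neighbours not called were Snhg11, Lbp, D630003M21Rik, Rprd1b, Tti1, Vstm2l, Gm14176 and Ctnnbl1, with log2 differences between 0.06 (Tti1) and 0.36 (D630003M21Rik). Tgm2 was thus higher amid genes that were not called higher, while Tgm1 was higher amid genes that mostly were.

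**Figure D4:**
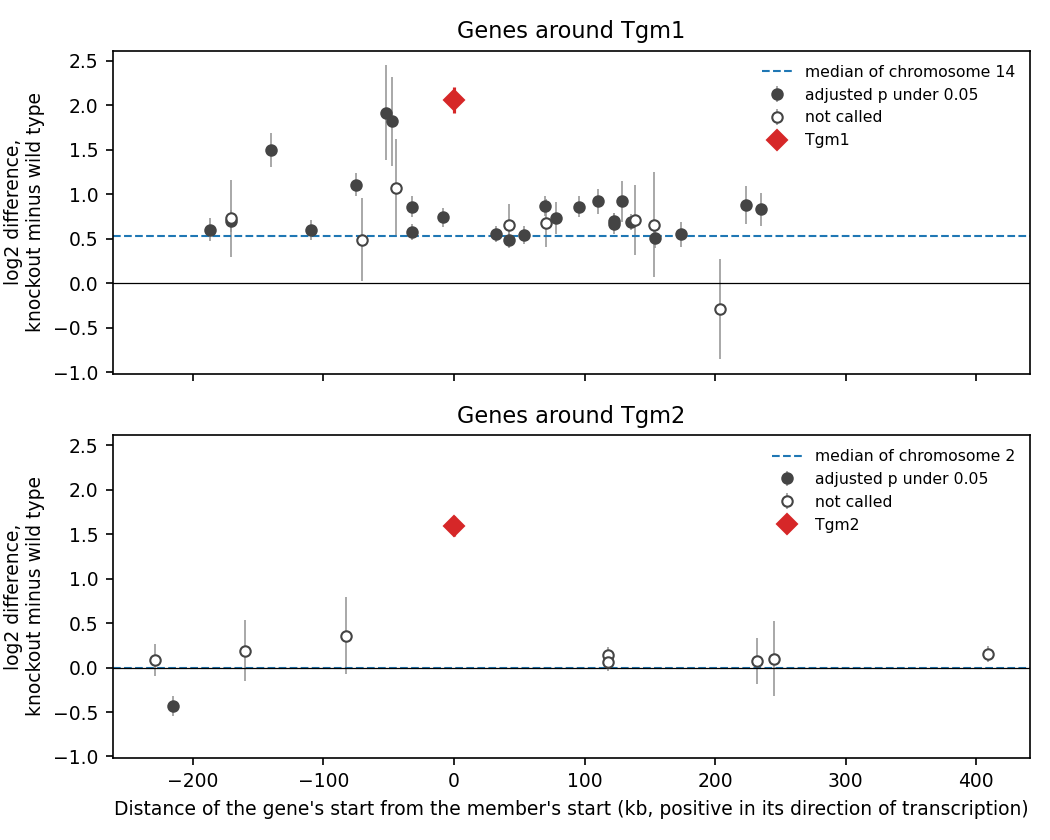
Log2 difference between knockout and wild type (vertical, with standard error) of the tested genes within 250 kb of Tgm1 (top, 33 genes) and Tgm2 (bottom, 9 genes), by the distance of their start from the member's start in kb. Filled points are called genes, and the dashed line is the median of the chromosome, 0.53 for chromosome 14 and -0.00 for chromosome 2.

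Because the series concerns beta-catenin, which acts through TCF and LEF factors at DNA, the promoter windows of Tgm1 are shown. They are given as in RefSeq on GRCm38.p6 for 2 start sites, without exon bases. The promoter set used here held no window for Tgm2, so the promoter of Tgm2 was not searched. Window 1 is chr14:55713495-55713742, minus strand, from 250 to 3 bases before the start site at 55713492. Window 2 is chr14:55713090-55713287, minus strand, from 199 to 2 bases before the start site at 55713088. Matches to searched motifs are in capitals.
Tgm1 window 1: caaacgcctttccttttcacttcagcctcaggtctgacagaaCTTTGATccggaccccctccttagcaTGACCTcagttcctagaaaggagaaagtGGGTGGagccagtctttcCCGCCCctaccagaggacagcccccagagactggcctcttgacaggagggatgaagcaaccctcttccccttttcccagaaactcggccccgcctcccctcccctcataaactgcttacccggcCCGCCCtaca
Tgm1 window 2: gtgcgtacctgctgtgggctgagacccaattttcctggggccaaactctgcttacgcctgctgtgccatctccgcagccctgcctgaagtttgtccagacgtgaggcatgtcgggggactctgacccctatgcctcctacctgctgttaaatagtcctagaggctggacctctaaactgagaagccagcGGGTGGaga
Motifs were searched on both strands. The first match in window 1 is to the TCF/LEF letters CTTTGAN, 208 bases before the start. Such a match occurred in 13.7% of 32851 promoter windows of the same length. The second is a retinoid receptor half-site, AGGTCA, 182 bases before the start and read on the other strand (13.9% of windows). They are followed by a CACCC box, GGGTGG, at 154 bases (27.8%), and by 2 GC boxes, GGGCGG, at 136 and 12 bases on the other strand (32.5%). No matches overlapped each other. The letters of AP-1 (TGANTCA), the TATA box (TATAAA), the E2 box (CAGGTG) and GRHL (AACNGGTT) were in neither window. Window 2 held 1 match, a CACCC box 10 bases before its start (23.9% of windows of its length), and none to the TCF/LEF, retinoid half-site or GC box letters. A match describes the letters and is not a site of binding.

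Transcription factors known to act on Tgm1 in epidermis were mostly lower or not called. Of 12 listed, 10 were tested, with a median log2 difference of -0.34, against -0.01 over all tested genes. Among them 1 was called higher and 3 lower (edgeR's quasi-likelihood test), against 7.60% and 5.71% over all tested genes. Klf4, a zinc finger factor of the skin barrier and of pluripotency, was at 236, 195 and 279 CPM in wild-type libraries A, B and C and at 360, 616 and 562 CPM in the knockout libraries. It rose by 1.12 on the log2 scale, with an adjusted p of 0.000398. Tfap2c, an AP-2 factor, fell from 96.2 ± 2.60 to 46.2 ± 7.66 CPM, a log2 difference of -1.06 with an adjusted p of 2.52e-05. Tfap2a, its relative, fell from 2.79 ± 0.476 to 0.697 ± 0.0815 CPM, a log2 difference of -1.99 with an adjusted p of 0.00187. Grhl2, a grainyhead-like factor of epithelia, fell from 9.42 ± 0.939 to 5.48 ± 1.67 CPM, a log2 difference of -0.79 with an adjusted p of 0.0325. The Grhl2 call was lost without any 1 of the wild-type libraries or without knockout library B or C, with an adjusted p of 0.135 without wild-type library A. Grhl3, known as an activator of Tgm1 in skin, was at 24.9 ± 5.48 and 29.8 ± 5.67 CPM with an adjusted p of 0.34, and Sp1, the most abundant factor not called, was at 280 ± 31.2 and 310 ± 16.5 CPM. Trp63, the master regulator of stratified epithelia, was at or under the floor in each library and not tested. Without knockout library A, 5 of the list were called.

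Genes for the proteins that Tgm1 cross-links in skin ranged from undetected to well above the floor. Of 19 cornified envelope genes, 12 were tested, with a median log2 difference of 0.21, against -0.01 over all tested genes. Among them 4 were called higher and 1 lower, against 7.60% and 5.71% over all tested genes. Ivl (involucrin), Sprr1a, Sprr1b, Sprr2a1, Sprr3 and Lce1a1, which are made late in keratinocyte differentiation, were at or under the floor in each library. Cstb, cystatin B, rose from 34.9 ± 2.05 to 51.3 ± 7.94 CPM, a log2 difference of 0.55 with an adjusted p of 0.00653 (edgeR's quasi-likelihood test). The plakins Evpl and Ppl, which form the scaffold of the envelope, rose by 0.57 and 0.45 on the log2 scale, with adjusted p-values of 0.0212 and 0.0402. S100a11, a calcium-binding protein, rose by 0.43, with an adjusted p of 0.0433. Anxa1, annexin A1, fell from 7.82 ± 1.17 to 2.81 ± 1.12 CPM, a log2 difference of -1.47 with an adjusted p of 0.00228. The Evpl call was lost without wild-type library A (adjusted p 0.122), wild-type library B or knockout library B. The Ppl call was lost without any 1 library, with up to 0.173 without wild-type library A. The S100a11 call was lost without any 1 library but knockout A, with up to 0.201 without knockout library C. Both the Ppl and the S100a11 call were also lost with upper quartile scaling and with library totals. Dsp, desmoplakin, the most abundant member not called, was at 67.4 ± 7.87 and 70.2 ± 9.51 CPM. Without knockout library A, 4 of the list were called.

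Genes of the corneocyte lipid envelope and of ichthyosis were low, apart from St14. Of 11 listed, 6 were tested, with a median log2 difference of 0.21, against -0.01 over all tested genes. Among them 1 was called higher and 0 lower, against 7.60% and 5.71% over all tested genes. The called gene was St14, the membrane protease matriptase, which was at 78.6, 84.6 and 91.0 CPM in wild-type libraries A, B and C and at 148, 117 and 128 CPM in the knockout libraries. The groups did not overlap, and St14 rose by 0.63 on the log2 scale with an adjusted p of 0.000797 (edgeR's quasi-likelihood test). Aloxe3, a lipoxygenase of the same pathway and in the wild type the most abundant gene not called, was at 2.7 ± 0.564 and 2.19 ± 1.29 CPM.

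Matrix proteins that Tgm2 cross-links or binds changed in both directions. Of 10 listed, 9 were tested, with a median log2 difference of 0.32, against -0.01 over all tested genes. Among them 4 were called higher and 2 lower (edgeR's quasi-likelihood test), against 7.60% and 5.71% over all tested genes. Fn1, fibronectin, the best known of them, was at 1847, 1818 and 1713 CPM in wild-type libraries A, B and C and at 1125, 990 and 1123 CPM in the knockout libraries. It fell by 0.73 on the log2 scale, with an adjusted p of 3.92e-05, opposite to Tgm2. Fn1 lies on chromosome 1, which was lower in the knockout. Its genes averaging at least 100 counts had a median log2 difference shifted by -0.32 from that of autosomes other than 1 and 14. With the chromosome medians taken out in the fit, the log2 difference of Fn1 was -0.41, with an adjusted p of 0.00447. Fbn1, the fibrillin of microfibrils, rose from 15.2 ± 1.91 to 36.4 ± 7.09 CPM, a log2 difference of 1.25 with an adjusted p of 8.05e-05. Spp1, osteopontin, rose from 231 ± 52.5 to 472 ± 118 CPM, by 1.03 with an adjusted p of 0.000837. Nid1, the basement membrane protein nidogen, rose from 130 ± 6.64 to 235 ± 11.1 CPM, by 0.85 with an adjusted p of 1.38e-05. Hspg2, perlecan, rose from 599 ± 51.7 to 990 ± 155 CPM, by 0.73 with an adjusted p of 0.000384. Col1a1, a chain of type I collagen, fell from 12.5 ± 3.27 to 4.49 ± 1.28 CPM, a log2 difference of -1.48 with an adjusted p of 0.000912. Ltbp1, which holds latent TGF-beta in the matrix, was not called, at 26.2 ± 1.79 and 28.4 ± 2.84 CPM. Without knockout library A, 7 of the list were called.

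Of the surface partners of Tgm2 and the proteins that switch its disulfides, 9 were listed and all were tested. Among them 5 were called higher and 0 lower, against 7.60% and 5.71% over all tested genes. Their median log2 difference was 0.53, against -0.01 over all tested genes. Lrp1, the receptor that takes up Tgm2 from the surface, was at 207, 209 and 176 CPM in wild-type libraries A, B and C and at 416, 423 and 383 CPM in the knockout libraries. It rose by 1.05 on the log2 scale, with an adjusted p of 5.21e-06 (edgeR's quasi-likelihood test). Mfge8, a bridging protein of apoptotic cell uptake, rose from 153 ± 3.61 to 264 ± 24.6 CPM, by 0.79 with an adjusted p of 3.99e-05. Among integrins, Itga5 of the fibronectin receptor rose from 158 ± 15.9 to 242 ± 9.64 CPM, by 0.61 with an adjusted p of 0.000398. Itgb3 rose from 8.0 ± 0.556 to 12.7 ± 0.301 CPM, by 0.66 with an adjusted p of 0.0114, which was 0.0561 without wild-type library A. Pdia3, a disulfide isomerase that oxidizes Tgm2, rose from 298 ± 31.2 to 432 ± 42.8 CPM, by 0.53 with an adjusted p of 0.00212. Itgb1, the main integrin partner, was not called, at 464 ± 26.2 and 502 ± 37.5 CPM, nor was Txn1, thioredoxin, which reduces Tgm2, at 238 ± 18.4 and 227 ± 4.71 CPM. These genes were chosen with earlier results known, and the count is not independent evidence of a direction.

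Tgm2 also acts as a G protein of some receptors, and that group had few genes above the filter on low counts. Of 9 genes of G protein signalling and amine transport, 4 were tested. Their median log2 difference was 0.11, against -0.01 over all tested genes. Among them 1 was called higher and 0 lower, against 7.60% and 5.71% over all tested genes. The adrenergic receptors Adra1a and Adra1b were at or under 0.180 CPM in each library. Calr, calreticulin, a chaperone that binds Tgm2, rose from 605 ± 60.7 to 813 ± 164 CPM, a log2 difference of 0.43 with an adjusted p of 0.034 (edgeR's quasi-likelihood test). That call was lost without wild-type library A (adjusted p 0.172), wild-type library B, knockout library A or knockout library C, in each of which 0 of the list were called, and also with upper quartile scaling and library totals. Rhoa, a substrate and effector, was not called, at 264 ± 5.91 and 302 ± 9.15 CPM.

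Retinoic acid is a classical inducer of Tgm2, and called genes of its pathway went in both directions. Of 19 listed, 17 were tested, with a median log2 difference of -0.10, against -0.01 over all tested genes. Among them 1 was called higher and 3 lower (edgeR's quasi-likelihood test), against 7.60% and 5.71% over all tested genes. Crabp2, which carries retinoic acid to the nucleus, fell from 8.42 ± 2.02 to 2.11 ± 0.261 CPM, a log2 difference of -2.0 with an adjusted p of 0.000104. Rxrg, a retinoid X receptor at low level, fell from 1.58 ± 0.752 to 0.205 ± 0.129 CPM, by 2.88 with an adjusted p of 0.00392. Its knockout counts were 3, 8 and 2, so all but 1 of these libraries lay under the floor and the size of the fitted difference rests on few counts. Cyp26b1, which breaks retinoic acid down, rose from 0.985 ± 0.432 to 2.55 ± 0.386 CPM, a log2 difference of 1.37 with an adjusted p of 0.0312. The Cyp26b1 call was lost without wild-type library A or C or knockout library B or C, at up to 0.117 without knockout library C. Cyp26a1, a related enzyme, was at 2.03 ± 0.285 and 3.91 ± 1.38 CPM with an adjusted p of 0.0655. The receptors Rarg and Rara, the most abundant genes of the list, were not called, at 139 ± 15.5 and 143 ± 29.3 CPM for Rarg and 84.9 ± 10.4 and 85.2 ± 2.26 CPM for Rara. Without knockout library A, 5 of the list were called.

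Other factors known to raise Tgm2 belong to NF-kappaB, hypoxia, TGF-beta and interleukin-6 signalling. Of 9 listed, 8 were tested, with a median log2 difference of 0.09, against -0.01 over all tested genes. Among them 1 was called higher and 0 lower, against 7.60% and 5.71% over all tested genes. Nfkb1, a subunit of NF-kappaB, rose from 70.2 ± 4.94 to 96.3 ± 22.9 CPM, a log2 difference of 0.46 with an adjusted p of 0.0453 (edgeR's quasi-likelihood test). Its knockout values were 70.6, 114 and 104 CPM for libraries A, B and C, and library A lay within the wild-type range. The call was lost without any 1 library but knockout A, at up to 0.211 without knockout library B, and with upper quartile scaling, library totals and limma-voom. Stat3 and Hif1a, the most abundant genes not called, were at 166 ± 4.66 and 184 ± 11 CPM and at 109 ± 2.30 and 110 ± 3.45 CPM.

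**Figure D5:**
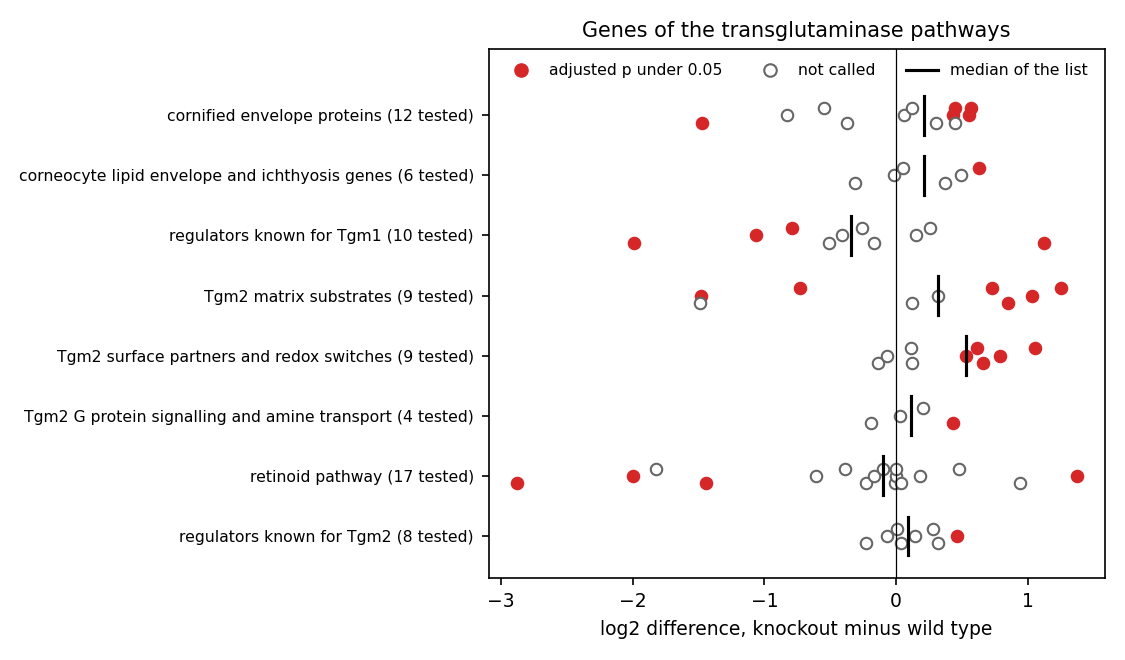
Log2 difference between knockout and wild type (horizontal) of every tested gene in the 8 lists around Tgm1 and Tgm2, with called genes filled and a bar at the median of each list. The surface partners of Tgm2 have the highest median, 0.53, and the regulators of Tgm1 the lowest, -0.34.

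The identity of the cells was read from marker lists. The 8 embryonic stem cell markers summed to 4554 to 4910 CPM in the wild type and to 5144 to 6207 CPM in the knockout, and 1 of them, Tdgf1, was called higher, by 0.63 on the log2 scale (adjusted p 0.000175, edgeR's quasi-likelihood test). Primitive endoderm markers were mostly higher in the knockout, as the members were. All 8 tested of 9 were called higher, against 7.60% of all tested genes. The markers were added after their values were seen, so this count is not independent evidence of a direction. The list summed to 49.1 to 89.5 CPM in the wild type and to 146 to 319 CPM in the knockout. Gata4 and Sox7 lie on chromosome 14, which was higher as a whole. With the chromosome medians taken out, the log2 difference of Gata4 was 1.15, as against 1.70, and it was still called. Gata4, a transcription factor of that lineage, was at 9.0, 8.08 and 15.2 CPM in wild-type libraries A, B and C and at 26.8, 30.4 and 47.3 CPM in the knockout libraries, while Afp was at or under the floor in each. Of these 8, the calls of Foxa2 and Dab2 were lost without knockout library C, at adjusted p-values of 0.18 and 0.188. Both were also lost without any 1 of the wild-type libraries, and that of Dab2 without knockout library B. The Foxa2 call was lost with limma-voom too, and the Dab2 call with DESeq2. Foxa2 had 6, 6 and 4 counts in wild-type libraries A, B and C, at or under the floor, so the size of its difference rests on few counts. The part of such cells in the levels of Tgm1 and Tgm2 was not tested. In both genotypes the library with the highest Gata4, C, was also the one with the highest Tgm1 and the lowest Tgm2. The sum of the list was highest in library C only in the knockout. In the wild type that sum was highest in library B, at 89.5 CPM against 85.6 CPM in C. Wild-type library B had the lowest Tgm1 and the highest Tgm2 of its group.

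Markers of the cell types in which the members are best known were low. The 7 keratinocyte markers summed to 5.71 to 8.42 CPM in the wild type and 3.21 to 4.28 CPM in the knockout. Of these, 2 were tested, 0 were called higher and 1, Krt10, lower, by a log2 difference of -0.94 (adjusted p 0.0245, edgeR's quasi-likelihood test). That was 0.139 without wild-type library A, and the call was also lost without wild-type library C or knockout library B or C. Krt5, Krt15 and Trp63 were at or under the floor in each library. The 9 fibroblast markers summed to 35.8 to 49.3 CPM and 37.9 to 48.0 CPM in wild type and knockout. Of the 6 tested, Pdgfra was called higher, by 1.49 (adjusted p 0.000616), and Col1a1 lower, and Lum was at or under the floor. Endothelial and macrophage markers summed to 123 to 131 CPM and 77.5 to 106 CPM. There 1 of 4 tested, Pecam1, which stem cells also express, was lower, by a log2 difference of -0.57 (adjusted p 0.00755), and Ptprc, Adgre1 and Csf1r were at or under the floor. Trophoblast markers summed to 21.7 to 31.1 CPM and 22.2 to 33.5 CPM, with 0 of 6 tested called, and 0 of 6 also at an unadjusted p under 0.05.

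The genes whose log2 CPM followed each member most closely over the 6 libraries were taken from the 12848 genes that averaged 50 counts or more. For Tgm1 they were Spcs1 (Pearson r 0.999), a signal peptidase subunit on chromosome 14, then Pqbp1 (0.999), Usp27x (0.998), Flii (0.997) and Nptx1 (0.997). Their log2 differences ran from 0.49 for Flii to 1.53 for Nptx1. The most opposite genes were Zdhhc6 (-0.998), Fndc3c1 (-0.997) and Rbm44 (-0.997). For Tgm2 they were Rps6ka4 (0.999), Kcnd1 (0.999), Suv39h1 (0.998), Abca3 (0.998) and Ubp1 (0.997), with log2 differences from 0.65 for Ubp1 to 1.1 for Suv39h1. The most opposite were Fgd1 (-0.998), Cnot9 (-0.996) and Coq8a (-0.995). The 2 lists of closest genes had no name in common, but both held genes on chromosome X. These were Pqbp1 and Usp27x for Tgm1 and Kcnd1 and Suv39h1 for Tgm2. Fndc3c1 and Fgd1, among the most opposite genes, were on chromosome X too. Rbm44, Cnot9 and Coq8a, also among the most opposite, were on chromosome 1, which was lower in the knockout. The part of chromosome-wide differences in these lists was not tested. By deviations from the genotype means alone, Tgm1 was followed most closely by Ssbp3 (1.0), Mettl8 (0.999), Usp27x (0.997), Clp1 (0.997) and Kctd11 (0.995), and Tgm2 by Fdx1 (1.0), Ube2b (1.0), Tsc1 (0.999), Eno2 (0.998) and Cfl2 (0.997). The most opposite by deviations were Golga1 (-0.998), Dhcr7 (-0.998) and Kdelc1 (-0.998) for Tgm1 and Mark3 (-1.0), Psmc2 (-0.999) and Dda1 (-0.999) for Tgm2. Usp27x was thus near Tgm1 by both measures. With 6 libraries in 2 genotypes, and libraries that share their depth, such values are descriptions and say nothing of shared control.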

How the data were processed

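The deposited table holds unnormalized whole-number counts for each gene, beside its exon positions and exon length. The submitters' processing notes name cutadapt 2.10, STAR 2.7.5b, featureCounts 2.0.1 and the build GRCm38. The annotation and the strand setting are not given in the sources used here. Each count column was matched to a library by its name, and none was left over.

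The analysis used edgeR 4.0.16 in R 4.3.3: filterByExpr by genotype (smallest count 10, smallest total 15), TMM scaling, and a quasi-likelihood fit of genotype over all 6 libraries (glmQLFit, glmQLFTest). Benjamini-Hochberg adjustment ran over the 17325 genes tested, and calls needed an adjusted p under 0.05. CPM values are TMM-scaled, RPKM values use the exon length of the table, and log2 CPM used a prior count of 2. Depth is the total count per library.

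Symbols, exons and coding stretches came from GENCODE M21 and promoters from RefSeq. Coding sequences were translated and aligned with Biopython 1.88. Neighbours were genes lying at least in part within 250 kb of a member.

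The members and the gene lists were chosen with earlier results of these data known. The genes named are every family member, the called genes of each list (at most 6, by size of difference) with 1 or 2 abundant ones not called, every neighbour, and the genes most alike by correlation. Genes beyond these, such as Grhl3, Trp63, Cyp26a1 and the markers, were added after their values were seen. A result for 1 gene of the retinoid list is not reported here. Alternatives were other scalings (RLE, upper quartile, library totals), other filters (none, or 1 CPM in 3 libraries), DESeq2 1.42.0, limma-voom (limma 3.58.1), halved counts, the replicate letter as a block, removal of chromosome medians, other windows (100 and 500 kb) and leaving out each library.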

Additional observations from a re-analysis of the deposited data

How the results depend on the processing

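Over 13 results and 212 alternative values, 181 stayed within the spread or within 1.5 times the count of calls, and 31 moved. A change of direction could be scored only for the log2 differences of Tgm1 and Tgm2, and 0 of their values changed direction. The other results were counts of calls, which have no direction. Tgm1 kept a log2 difference between 1.51 and 2.25 and Tgm2 one between 1.52 and 1.64. For Tgm1 the lowest value, 1.51, came with the medians of chromosomes 1 and 14 removed, which took its called neighbours from 25 to 2. A window of 100 kb held 14 called neighbours for Tgm1 and 0 for Tgm2. Upper quartile scaling and library totals each left 3 cornified envelope genes (5 in the main result), 0 of the G protein list and 0 regulators of Tgm2. The last count was also 0 with chromosome medians removed and with limma-voom. Leaving out 1 library each gave 1374 to 2784 called genes over all, against 2307. The counts then ran from 2 to 4 for cornified envelope genes and from 0 to 1 for the G protein list, the regulators of Tgm2 and the neighbours of Tgm2. The cause was not tested.

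Whether the letters pair the libraries was not settled by so few values. Deviations of same-letter libraries correlated at 0.19, -0.10 and 0.38 for A, B and C. For different letters the values ran from -0.38 (wild-type C with knockout A) to 0.23 (wild-type B with knockout A). The same-letter values for A and B lay within that range, and that for C lay above it. With a replicate block, 2686 genes were called, with 5 regulators of Tgm1 and 7 matrix genes. Called genes of low level rest on few counts, 4 to 44 a library for Tgm3, and 3 libraries a genotype limit every call.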
